A study of Mus musculus with 6 samples.

Results

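The genes described here encode the subunits of the 5 complexes of oxidative phosphorylation, in RNA of macrophages sorted from wounds of young and aged mice. They were chosen by gene symbol (Nduf, Sdha to Sdhd, Uqcr, Cyc1, Cox4 to Cox8, Atp5 and the protein-coding mt- genes), and 109 of the 15168 genes in the table matched. Of these, 83 were nuclear subunit genes (36 of complex I, 4 of complex II, 9 of complex III, 17 of complex IV and 17 of complex V), 13 were mitochondrially encoded, and 13 were pseudogenes by symbol or by annotated biotype and were counted apart. The samples came from Day 3 wounds of female wild-type C57BL6/J mice, 3 from young animals of 12 weeks and 3 from aged animals of 24 months. Each mouse had received 2 full-thickness wounds of 10 mm on its back. Live CD45+ CD11b+ F4/80+ CD64+ cells were sorted from the digested wound tissue of both ages. The age groups share strain, sex, wounding under isoflurane with buprenorphine for pain relief, and the sort. The number of mice behind a sample is not given in the sources used here, so the spread between samples, and every p-value below, may be in part technical.

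The mitochondrial respiratory chain takes electrons from NADH at complex I (NADH dehydrogenase) and from succinate at complex II, passes them through coenzyme Q, complex III, cytochrome c and complex IV to oxygen, and pumps protons across the inner membrane on the way. Complex V (ATP synthase) lets the protons flow back and makes ATP. Most subunits are encoded in the nucleus and imported, whereas a small core of complexes I, III, IV and V is encoded by mitochondrial DNA. Complex II is wholly nuclear. Macrophages are known to shift between glycolysis and oxidative phosphorylation as they move from inflammatory towards repair states.

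The 6 libraries held 15270103 to 17927483 counts, so that 1 count was worth 0.0553 to 0.0700 CPM (counts per TMM-scaled library size), and samples of 1 age differed by more than counting noise. In the whole table, macrophage and sort markers summed to 40877, 43789 and 56612 CPM in young samples A, B and C and to 44301, 37259 and 44566 CPM in aged samples A, B and C. Of these 12 markers, 4 fell and 2 rose, and Adgre1, which encodes the F4/80 antigen of the sort, was among those that fell, at -0.69 ± 0.18 (SE) on the log2 scale. Neutrophil markers summed to 717, 1216 and 1168 CPM in the young and 1581, 925 and 1557 CPM in the aged samples, with 4 of 12 tested markers higher in the aged. Ly6g itself was at 6.13, 10.9 and 7.39 CPM in the young and 9.59, 6.17 and 9.50 CPM in the aged samples. The paper states that its sort did not exclude Ly6G+ cells, so that a few neutrophils may be among the sorted cells. Keratinocyte markers summed to 191 CPM in aged sample B against 2.05 to 9.94 CPM in the other samples, and 2 of 2 tested markers were higher in the aged. Erythroid markers summed to 153, 489.6 and 423 CPM in the young and 41.8, 152 and 106 CPM in the aged samples, and 4 of 5 tested markers fell. Markers of T, B and NK cells stayed between 2.80 and 4.14 CPM in sum. Endothelial markers summed to 12.6, 12.0 and 12.1 CPM in the young and 25.9, 30.0 and 31.3 CPM in the aged samples, without overlap, and 1 of 3 tested markers (Pecam1) rose. Fibroblast markers summed to 123 CPM in aged sample B against 13.9 to 41.6 CPM in the other samples, and mast cell markers to 68.0, 33.8 and 18.7 CPM in the young and 53.7, 1.02 and 0.741 CPM in the aged samples. Skeletal muscle markers summed to 4.26, 25.3 and 6.99 CPM in the young and 2.94, 5.09 and 9.63 CPM in the aged samples, and 0 of 5 tested markers were called. In bulk RNA, fewer cells of a type and less RNA per cell cannot be told apart, and the part of these marker levels in the results below was not tested.

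A minority of the nuclear subunit genes fell in aged wound macrophages, and complex I held most of those that passed the test. Of 80 nuclear members tested, 14 (17.5%) fell and 0 rose at an adjusted p-value under 0.05, against 7.97% lower and 9.73% higher among all 11878 genes tested. At an unadjusted p-value under 0.05, 37 nuclear members were lower and 0 higher, against 16.5% and 18.1% of all genes. The median log2 fold change of the nuclear members, aged minus young, was -0.36 (22.1% lower), with 73 values below 0 and 7 above, beside a median of -0.02 over all genes. In 43 of the 80 (53.8%) every aged sample was below every young sample and in 0 every aged sample was above, against 19.0% and 19.2% of all genes. These differences were mostly small. Only Ndufa4l2 passed the test with a change of more than 2-fold, against 4.20% of all genes lower and 4.59% higher by that rule. Of the 13 mt- genes, 0 were called by edgeR in either direction, 1 was lower at an unadjusted p-value under 0.05, and the median was -0.14. DESeq2 and limma-voom with quality weights called 0 mt- genes as well.

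**Figure D1:**
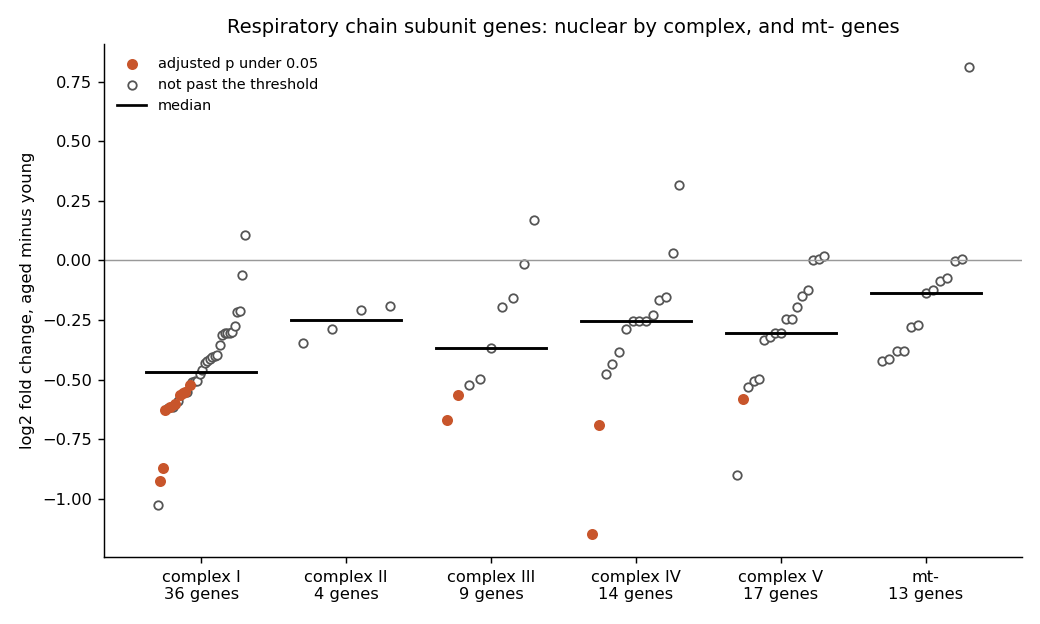
Log2 fold change, aged minus young, of each tested nuclear subunit gene by complex and of the mt- genes, with filled points for an adjusted p-value under 0.05 and a bar at each median. The medians lie at -0.47, -0.25, -0.37, -0.25 and -0.30 for complexes I to V and at -0.14 for the mt- genes, and 9 of the 14 filled points are in complex I.

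Most of these calls were lost when transcript length and GC content were taken into account together. Subunit genes are short, with a median transcript of 863 bases against 2732 bases for all tested genes. Among the tested genes that are no members, the median log2 fold change was -0.27 for transcripts under 1000 bases, -0.22 from 1000 to 2000, 0.01 from 2000 to 4000 and 0.27 above 4000 bases, so that short genes as a whole were lower in the aged samples. When offsets for transcript length and GC content were fitted in each sample over all genes, 1 of the 14 nuclear calls remained past the threshold (Ndufc2, -0.61, adjusted p = 0.0209). With these offsets 5.21% of all genes tested were lower. The nuclear median was then -0.18, with 59 of 78 values below 0 and 14 lower at an unadjusted p-value under 0.05, a share near the 15% of all genes lower by that rule in the same fit, and the mt- median was 0.11. The 46 nuclear members under 1000 bases had a median of -0.39 and the 24 members of 1000 to 2000 bases had a median of -0.40, while the 6 members of 2000 to 4000 bases and the 2 above 4000 bases had medians of -0.26 and -0.30. Spearman's rho between length and fold change over 78 nuclear members was 0.07 (a description across genes, which share libraries). Whether the trend with length came from the libraries or from the cells was not tested. The values that follow are those without offsets, and the value with offsets is given for the genes that lead each complex.

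**Figure D2:**
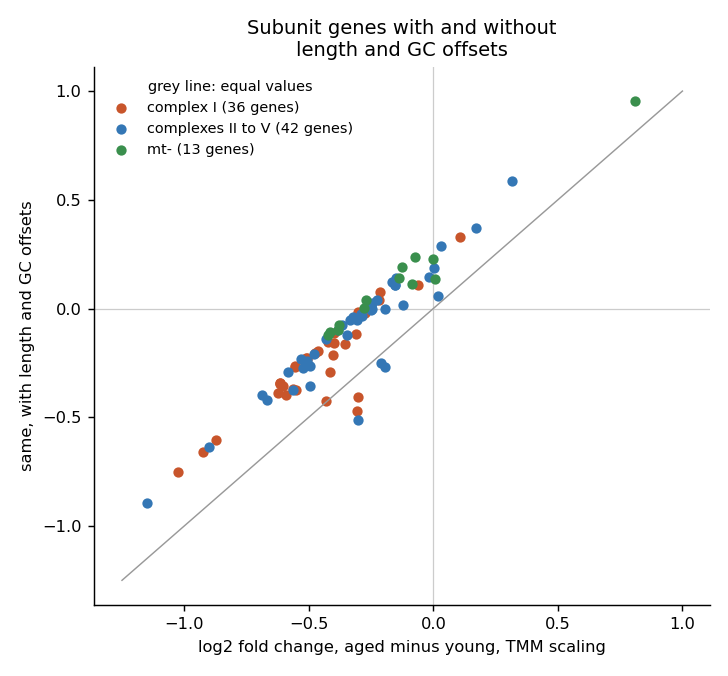
Log2 fold change, aged minus young, of the subunit genes with length and GC offsets (vertical axis) against the value with TMM scaling alone (horizontal axis), coloured by complex I, complexes II to V and mt- genes. Most points lie above the grey line of equal values, and the nuclear median moves from -0.36 to -0.18.

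Complex I held the most calls. Of its 36 nuclear members, 9 (25.0%, against 7.97% of all genes) fell and 0 rose, 35 values were below 0, and the median was -0.47 (27.7% lower). All aged samples were below all young samples in 26 members (72.2%, against 19.0%). Summed over the 36 genes, the level was 1566, 1492 and 1742 CPM in young samples A, B and C and 1261, 1098 and 1153 CPM in aged samples A, B and C, so that the highest aged sum lay below the lowest young sum, at a ratio of means of 0.732. With the length and GC offsets the median was -0.23 and 1 member was called, where 5.21% of all genes were lower. Whether complex I differed from the other complexes was not tested.

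Ndufc2, an accessory subunit of the membrane arm, had the lowest adjusted p-value of all members. It stood at 57.9, 55.1 and 63.7 CPM in the young samples and 32.4, 30.7 and 33.4 CPM in the aged samples (chr7:97400003-97407802, mm10). The log2 fold change was -0.87 ± 0.15 (SE, adjusted p = 0.00827), or 45.3% lower, with no overlap between the ages. Ndufa12, an accessory subunit of the peripheral arm, stood at 11.1, 11.4 and 12.8 CPM in the young and 5.67, 6.62 and 6.29 CPM in the aged samples (chr10:94198720-94221443). Its fold change was -0.92 ± 0.21 (adjusted p = 0.0185), and with offsets -0.66 (adjusted p = 0.0513). It is one of 2 related features, since the processed pseudogene Ndufa12-ps was counted at 21.4, 12.9 and 21.2 CPM in the young and 8.82, 9.29 and 11.1 CPM in the aged samples and was lower by a like amount (-0.92 ± 0.24, adjusted p = 0.0277). Reads of the pair cannot be assigned with certainty, and adding the pseudogene counts to the parent gave -0.92 for Ndufa12.

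The 7 nuclear core subunits, which carry the flavin and the iron-sulphur clusters or form the quinone site, had a median of -0.43, and 3 of them (42.9%, against 7.97% of all genes) fell. With offsets 0 of these were called. Ndufs3, of the quinone-binding module, went from 54.0, 58.1 and 60.7 CPM in the young to 40.2, 34.9 and 37.8 CPM in the aged samples (-0.62 ± 0.15, adjusted p = 0.0243; with offsets -0.34). Ndufs7, which holds the last iron-sulphur cluster before quinone, stood at 55.1, 61.1 and 69.7 CPM in the young and 40.2, 36.6 and 45.5 CPM in the aged samples (-0.60 ± 0.17, adjusted p = 0.0340). Both were separated between the ages, with a gap of several CPM. Ndufv2, of the NADH-oxidising module, stood at 82.9, 84.4 and 103 CPM in the young and 63.0, 59.9 and 60.0 CPM in the aged samples (-0.56 ± 0.16, adjusted p = 0.0346). Its partner in that module, Ndufv1, which carries the flavin, gave 72.4, 87.6 and 84.7 CPM in the young and 94.5, 75.0 and 65.0 CPM in the aged samples, with a fold change of -0.06 and a 95% interval of -0.46 to 0.34. The samples of both ages overlapped for Ndufv1. Ndufs1 had -0.43 (adjusted p = 0.0959) and Ndufs8 -0.42 (adjusted p = 0.103), and both were separated between the ages without passing the test.

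Among the 29 accessory subunits of complex I, 6 (20.7%, against 7.97% of all genes) fell, with a median of -0.47. With offsets 1 of these was called, Ndufc2. Ndufb5, Ndufb8 and Ndufb10 belong to the distal membrane arm. Ndufb5 stood at 53.8, 43.9 and 56.1 CPM in the young and 34.8, 31.4 and 33.4 CPM in the aged samples (-0.63 ± 0.16, adjusted p = 0.0285). Ndufb8, the highest of these per kb of transcript, stood at 134, 122 and 153 CPM in the young and 97.8, 87.9 and 92.9 CPM in the aged samples (-0.55 ± 0.16, adjusted p = 0.0369). Ndufb10 and Ndufa8 had the highest adjusted p-values of those called, at -0.52 (adjusted p = 0.0489) and -0.56 (adjusted p = 0.0473). With a block for the set letters neither was called (adjusted p = 0.0513 and 0.0586), whereas Ndufa5, Ndufa7 and Ndufs4 were (0.0420, 0.0421 and 0.0469). Ndufa5, which was not called without the block, had the lowest fold change of the complex, with 7.07, 4.63 and 7.32 CPM in the young and 2.38, 2.67 and 4.26 CPM in the aged samples (-1.03 ± 0.32, adjusted p = 0.0503). At these few CPM the interval was wide, from -1.74 to -0.32. Ndufa1 was the only tested nuclear member of complex I with a value above 0, at 17.3, 11.5 and 14.0 CPM in the young and 13.8, 14.1 and 18.2 CPM in the aged samples (0.11, 95% interval -0.38 to 0.59). Ndufb1-ps, which is listed as protein-coding but was counted apart by its symbol, was also above 0, at 0.07.

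**Figure D3:**
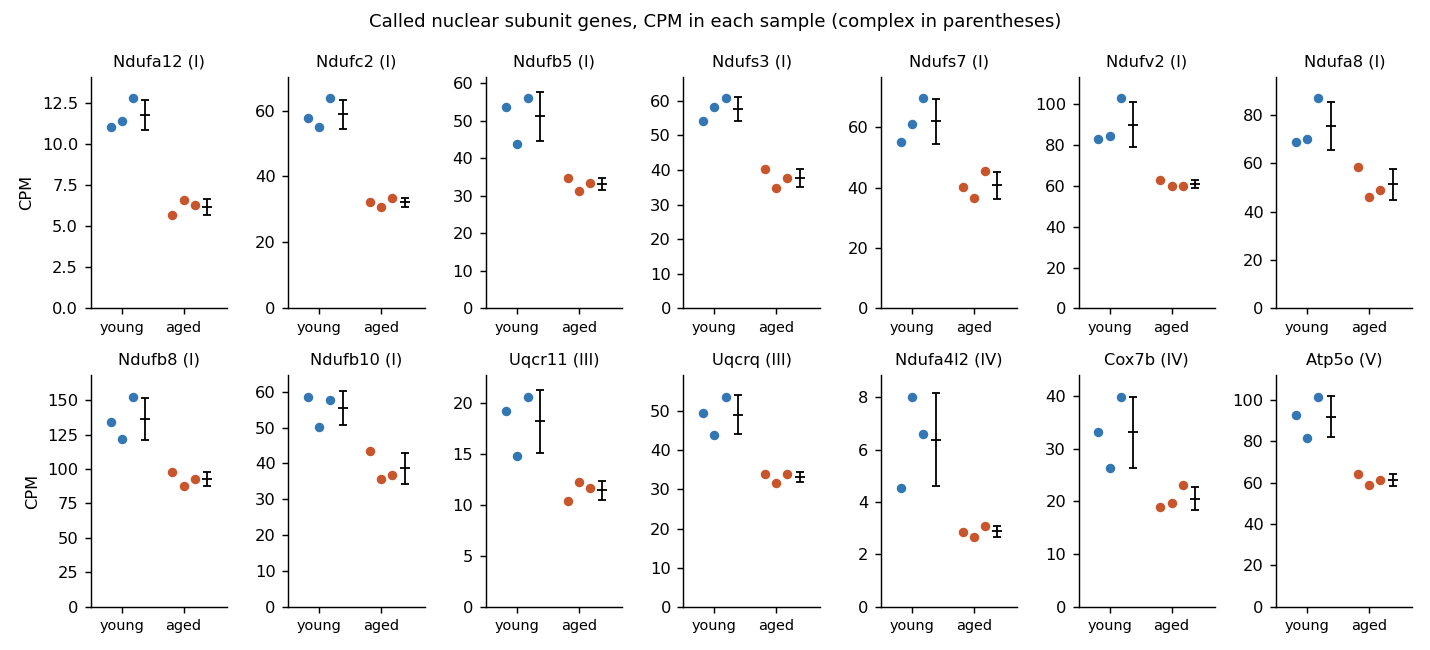
CPM in each sample for the 14 nuclear subunit genes with an adjusted p-value under 0.05, young samples A, B and C in blue and aged samples A, B and C in orange, with the mean and SD beside each group. In each panel the 3 aged points lie below the 3 young points, as for Ndufc2 (30.7 to 33.4 against 55.1 to 63.7 CPM).

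Many subunit promoters are known to hold sites for the factors NRF1, GABPA and YY1, so the windows from 250 bases before to 50 bases after the gene start (RefSeq, GRCm38.p6) were searched on both strands for GCGCANGCG (NRF1), CCGGAAGT (GABPA) and AAGATGGCG (YY1). Windows were matched for 67 of the 83 nuclear members. The NRF1 letters were in 19 windows (28.4%, against 6.25% of all 32851 windows), the GABPA letters in 5 (7.46% against 3.89%) and the YY1 letters in 6 (8.96% against 1.40%). For each member only the window nearest its gene start was used. The comparison took every window, whether or not its gene was expressed here, so the shares are not like for like. Of the 12 called members with a window, 6 held a match, and of all 67 members with a window 27 did. The 27 tested members with a match had a median log2 fold change of -0.40 and the 39 tested members without had a median of -0.31. Of the factors, Nrf1 had a fold change of 0.52 (adjusted p = 0.0769), Gabpa 0.51 (adjusted p = 0.0998) and Yy1 0.13 (adjusted p = 0.733), whereas Gabpb1, the partner subunit of GABPA, rose by 0.69 (adjusted p = 0.0258). The windows of the 6 called members with a match are shown because they hold the letters searched for, beside that of Ndufc2, whose adjusted p-value was the lowest and which held no match. Each runs 5′ to 3′ on the strand of its gene, with the matched letters in capitals: GABPA letters in Ndufs3 (chr2:90904672-90904971, minus strand), GABPA and then NRF1 letters in Uqcr11 (chr10:80406772-80407071, minus strand), NRF1 letters in Ndufa8 (at 2 places, chr2:36049289-36049588, minus strand), Ndufb10 (chr17:24724374-24724673, minus strand) and Atp5o (chr16:91931581-91931880, minus strand), YY1 letters in Ndufs7 (chr10:80249199-80249498, plus strand), and none in Ndufc2 (chr7:97399753-97400052, plus strand).
Ndufs3: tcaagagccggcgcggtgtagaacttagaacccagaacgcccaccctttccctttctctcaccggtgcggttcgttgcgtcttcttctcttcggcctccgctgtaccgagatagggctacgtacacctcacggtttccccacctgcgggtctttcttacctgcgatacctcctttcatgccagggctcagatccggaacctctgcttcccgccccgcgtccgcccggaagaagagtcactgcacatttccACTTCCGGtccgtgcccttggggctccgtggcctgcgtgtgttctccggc
Uqcr11: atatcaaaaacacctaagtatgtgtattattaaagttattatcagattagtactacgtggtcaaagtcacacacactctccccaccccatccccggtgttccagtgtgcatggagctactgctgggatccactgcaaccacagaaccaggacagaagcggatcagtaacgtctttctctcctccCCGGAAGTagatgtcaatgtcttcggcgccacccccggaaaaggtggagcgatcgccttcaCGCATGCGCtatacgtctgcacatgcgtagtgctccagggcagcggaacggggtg
Ndufa8: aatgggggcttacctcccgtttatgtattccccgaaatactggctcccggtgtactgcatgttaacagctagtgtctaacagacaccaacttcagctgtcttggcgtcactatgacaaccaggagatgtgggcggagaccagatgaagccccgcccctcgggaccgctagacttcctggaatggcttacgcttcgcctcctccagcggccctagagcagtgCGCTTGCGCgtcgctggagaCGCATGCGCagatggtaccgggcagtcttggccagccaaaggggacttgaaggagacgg
Ndufb10: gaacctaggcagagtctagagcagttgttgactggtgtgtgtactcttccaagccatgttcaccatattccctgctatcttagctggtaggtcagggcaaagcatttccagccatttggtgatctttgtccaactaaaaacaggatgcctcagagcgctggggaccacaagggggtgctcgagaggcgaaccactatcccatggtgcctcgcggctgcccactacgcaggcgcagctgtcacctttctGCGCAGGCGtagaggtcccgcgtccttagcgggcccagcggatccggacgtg
Atp5o: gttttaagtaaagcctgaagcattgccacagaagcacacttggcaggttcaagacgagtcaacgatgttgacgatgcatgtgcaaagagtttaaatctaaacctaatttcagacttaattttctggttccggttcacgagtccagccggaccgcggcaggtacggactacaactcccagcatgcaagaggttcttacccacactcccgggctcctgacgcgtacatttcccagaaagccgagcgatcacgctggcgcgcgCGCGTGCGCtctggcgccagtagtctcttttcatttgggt
Ndufs7: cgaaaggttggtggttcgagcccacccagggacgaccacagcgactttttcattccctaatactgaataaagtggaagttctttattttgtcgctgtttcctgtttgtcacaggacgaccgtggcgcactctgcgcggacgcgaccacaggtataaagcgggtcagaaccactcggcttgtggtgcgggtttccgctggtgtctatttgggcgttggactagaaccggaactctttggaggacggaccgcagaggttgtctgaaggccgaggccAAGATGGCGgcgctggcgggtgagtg
Ndufc2: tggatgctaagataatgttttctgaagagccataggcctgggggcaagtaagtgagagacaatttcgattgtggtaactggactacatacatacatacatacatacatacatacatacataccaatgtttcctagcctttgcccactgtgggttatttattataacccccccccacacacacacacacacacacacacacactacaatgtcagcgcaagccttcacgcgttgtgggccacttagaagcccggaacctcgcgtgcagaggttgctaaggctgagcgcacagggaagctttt

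In complex II, 0 of the 4 subunits were called by edgeR, DESeq2 or limma-voom, and 0 were at an unadjusted p-value under 0.05. Their median was -0.25. Sdha, the flavoprotein that oxidises succinate, stood at 124, 132 and 127 CPM in the young and 117, 108 and 106 CPM in the aged samples (-0.21 ± 0.15, adjusted p = 0.336). It was the only one of the 4 whose ages did not overlap (25.0%, near the 19.0% of all genes separated lower). The iron-sulphur subunit Sdhb had -0.29 (adjusted p = 0.268). Of the membrane anchors, Sdhd had the lowest value, with 182, 199 and 173 CPM in the young and 175, 129 and 132 CPM in the aged samples (-0.35, adjusted p = 0.184), and Sdhc the highest at -0.19 (adjusted p = 0.397). Aged sample A lay with the young samples for Sdhb, Sdhc and Sdhd. With offsets Sdha was at -0.25, Sdhb at -0.04, Sdhc at -0.27 and Sdhd at -0.12. In sum the 4 genes gave 615, 615 and 627 CPM in the young and 586, 474 and 479 CPM in the aged samples, which did not overlap.

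In complex III, 2 of 9 nuclear members (22.2%, against 7.97% of all genes) fell, 0 rose and the median was -0.37. With offsets the median was -0.08 and 0 were called. Both are small accessory subunits. Uqcr11 stood at 19.2, 14.8 and 20.7 CPM in the young and 10.4, 12.3 and 11.7 CPM in the aged samples (-0.67 ± 0.20, adjusted p = 0.0446; with offsets -0.42). With a block for the set letters Uqcr11 was not called (adjusted p = 0.0596). Uqcrq, which binds close to cytochrome b, stood at 49.7, 43.8 and 53.8 CPM in the young and 33.9, 31.6 and 34.1 CPM in the aged samples (-0.56 ± 0.16, adjusted p = 0.0348; with offsets -0.37). Neither overlapped between the ages, and 4 of the 9 members were so separated (44.4%, against 19.0% of all genes). The redox subunits gave other values. Cyc1, cytochrome c1, stood at 131, 115 and 145 CPM in the young and 136, 109 and 96.8 CPM in the aged samples (-0.19, adjusted p = 0.469). Uqcrfs1, the Rieske iron-sulphur protein, had the highest value of the complex, at 151, 123 and 142 CPM in the young and 179, 135 and 154 CPM in the aged samples (0.17, 95% interval -0.20 to 0.55). Uqcrc1 was near 0, at -0.02 (95% interval -0.41 to 0.38), while its partner Uqcrc2 was at -0.50 (adjusted p = 0.0648). The summed level of the 9 genes overlapped between the ages, at 777, 709 and 809 CPM in the young and 799.6, 639 and 642 CPM in the aged samples.

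In complex IV, 2 of 14 tested nuclear members (14.3%, against 7.97% of all genes) fell, 0 rose and the median was -0.25. With offsets the median was 0.00 and 0 were called. Cox7b, a small subunit of the oxidase, stood at 33.1, 26.4 and 39.9 CPM in the young and 18.8, 19.7 and 23.1 CPM in the aged samples (-0.69 ± 0.19, adjusted p = 0.0369; with offsets -0.40). Ndufa4l2, a paralogue of Ndufa4 that is known to be induced in low oxygen, had the lowest fold change of the 80 nuclear members tested. Its level was low, at 4.53, 8.03 and 6.60 CPM in the young and 2.87, 2.67 and 3.09 CPM in the aged samples (-1.15 ± 0.29, adjusted p = 0.0271; with offsets -0.89, adjusted p = 0.0625), and the ages did not overlap. Ndufa4 itself, which is counted with this complex, stood at 44.4, 30.2 and 42.6 CPM in the young and 35.8, 34.4 and 34.1 CPM in the aged samples (-0.17, adjusted p = 0.548). The summed level overlapped only narrowly, at 1109, 936 and 1186 CPM in the young and 947, 825 and 922 CPM in the aged samples, with young sample B below aged sample A.

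Several subunits of complex IV exist as tissue isoforms, and in these samples the widely expressed forms were counted far above the tissue-restricted ones, as for Cox4i1 (462 CPM per kb of transcript in the young) and Cox4i2 (0.346 CPM per kb). Cox4i1, the widely expressed form, stood at 339.8, 316 and 404 CPM in the young and 332, 265 and 308 CPM in the aged samples (-0.23, adjusted p = 0.379). The lung form Cox4i2 stayed between 0 and 0.352 CPM, highest in young sample B, and was too low to be tested. So were the heart and muscle forms Cox6a2 (0.111 to 0.762 CPM) and Cox7a1 (0.140 to 1.11 CPM), also highest in young sample B. Their counterparts Cox6a1, at 126, 90.6 and 121 CPM in the young and 123, 106 and 116 CPM in the aged samples, and Cox7a2, at 31.7, 23.9 and 30.6 CPM in the young and 21.8, 20.4 and 21.7 CPM in the aged samples, had fold changes of 0.03 (adjusted p = 0.917) and -0.43 (adjusted p = 0.107). The related gene Cox7a2l was at -0.25 (adjusted p = 0.322). Cox6b1 was at -0.38 (adjusted p = 0.141), and the testis form Cox6b2, at 0.462 to 1.12 CPM, had the highest value of the complex (0.32, 95% interval -0.86 to 1.49). Cox8a was at -0.15 (adjusted p = 0.553).

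In complex V, 1 of 17 nuclear members (5.88%) fell and 0 rose, which is near the 7.97% of all genes, and the median was -0.30. With offsets the median was -0.05 and 0 were called. The called gene was Atp5o, which encodes the stalk subunit that joins the catalytic head to the membrane part. It stood at 92.7, 81.5 and 101.6 CPM in the young and 64.3, 58.7 and 61.1 CPM in the aged samples (-0.58 ± 0.16, adjusted p = 0.0308; with offsets -0.29). The main catalytic subunits gave values close to 0: Atp5b stood at 936, 935 and 1100.5 CPM in the young and 913, 937 and 879 CPM in the aged samples (-0.12, 95% interval -0.49 to 0.24). Atp5a1, with the highest value of the complex, stood at 478, 457 and 500.0 CPM in the young and 534, 481 and 441 CPM in the aged samples (0.02, 95% interval -0.33 to 0.38). In the rotor, the central stalk subunit Atp5c1 was separated between the ages without passing the test, at 234, 268 and 300.4 CPM in the young and 203, 172 and 192 CPM in the aged samples (-0.50, adjusted p = 0.0626), whereas Atp5d was at 0.00 (95% interval -0.35 to 0.35) and Atp5e at -0.30 (adjusted p = 0.229). The c-ring subunit is encoded by 3 genes that make the same mature protein. Atp5g3 stood at 205, 136 and 178 CPM in the young and 149, 129 and 134 CPM in the aged samples (-0.33, adjusted p = 0.222). Atp5g1 was at -0.30 (adjusted p = 0.317), and Atp5g2 stayed between 0.560 and 1.11 CPM. The lowest value of the complex was that of Atp5k, a small membrane subunit, with 4.53, 2.81 and 3.50 CPM in the young and 1.33, 2.48 and 1.97 CPM in the aged samples (-0.90 ± 0.36, adjusted p = 0.103). The summed level was 2689, 2531 and 2966 CPM in the young and 2529, 2376 and 2368 CPM in the aged samples, and the ages were barely apart.

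**Figure D4:**
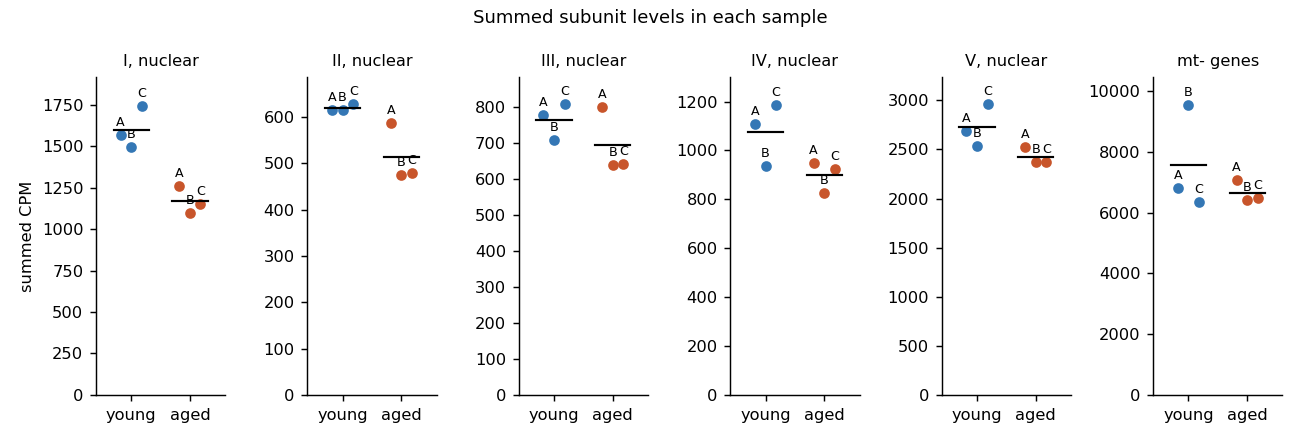
Summed CPM of the nuclear members of each complex and of the 13 mt- genes in each sample (letters A to C), with a bar at the mean of each age. The ages are apart for complex I (1492 to 1742 against 1098 to 1261 CPM), complex II and, narrowly, complex V, and overlap for complexes III and IV and the mt- genes.

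The 13 mt- genes, which are transcribed from both strands of the mitochondrial genome as long precursors, were not called in either direction. Their sum was 6812, 9523 and 6352 CPM in young samples A, B and C and 7083, 6404 and 6488 CPM in aged samples A, B and C (ratio of means 0.880). Young sample B was the highest of all 6, and the aged samples lay within the range of the young. Young sample B also had the highest sum of skeletal muscle markers (25.3 CPM), and the part of this in the mt- levels was not tested. In 2 genes (15.4%, below the 19.0% of all genes) the aged samples were all below the young, mt-Co2 and mt-Co3. mt-Co2 stood at 489.9, 564 and 448 CPM in the young and 389, 338 and 393 CPM in the aged samples (-0.42 ± 0.17, adjusted p = 0.102). mt-Co3 stood at 1270.0, 1617 and 1181 CPM in the young and 1135, 952 and 1042 CPM in the aged samples (-0.38 ± 0.19, adjusted p = 0.177). mt-Co1, which holds the oxygen-reducing centre, stood at 1846, 3046 and 2019 CPM in the young and 2436, 2267 and 2199 CPM in the aged samples (0.00, 95% interval -0.48 to 0.48). With offsets mt-Co2 was at -0.12, mt-Co3 at -0.07 and mt-Co1 at 0.23.

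Among the complex I genes of the mitochondrial genome, mt-Nd1 stood at 493, 653 and 375 CPM in the young and 437, 372 and 333 CPM in the aged samples (-0.42 ± 0.22, adjusted p = 0.207). mt-Nd4 was at -0.14 (adjusted p = 0.684) and mt-Nd5 at -0.08 (adjusted p = 0.827). mt-Nd2 was at -0.27 (adjusted p = 0.315) and mt-Nd3, at 2.84 to 7.35 CPM, at -0.38 (adjusted p = 0.462). mt-Nd6, the only protein-coding gene on the other strand, stood at 33.3, 20.2 and 17.3 CPM in the young and 25.7, 22.5 and 19.3 CPM in the aged samples (-0.07, adjusted p = 0.861). mt-Cytb, the cytochrome b of complex III, stood at 864, 1244 and 740.3 CPM in the young and 771, 842 and 735 CPM in the aged samples (-0.28, adjusted p = 0.379), and mt-Atp6 of complex V was at -0.12 (adjusted p = 0.682). In each of these genes but mt-Nd3 and mt-Nd6, the highest sample was young sample B.

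Some mt- genes overlap, and the part of this in their counts was not tested. mt-Atp8 shares 43 bases with mt-Atp6, mt-Nd4l shares 7 bases with mt-Nd4, and mt-Nd5 shares 14 bases with mt-Nd6 on the other strand, and whether the counting used strand is not stated in the sources used here. mt-Atp8 was counted at 14.9 CPM per kb of transcript in the young samples beside 1793 CPM per kb for mt-Atp6, although both lie on 1 messenger RNA, and its fold change was 0.01 (95% interval -0.98 to 0.99). mt-Nd4l was counted at 0.111 to 2.10 CPM and had the highest value of the mt- genes (0.81, 95% interval -1.05 to 2.67), beside mt-Nd4 at 263 to 434 CPM.

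**Figure D5:**
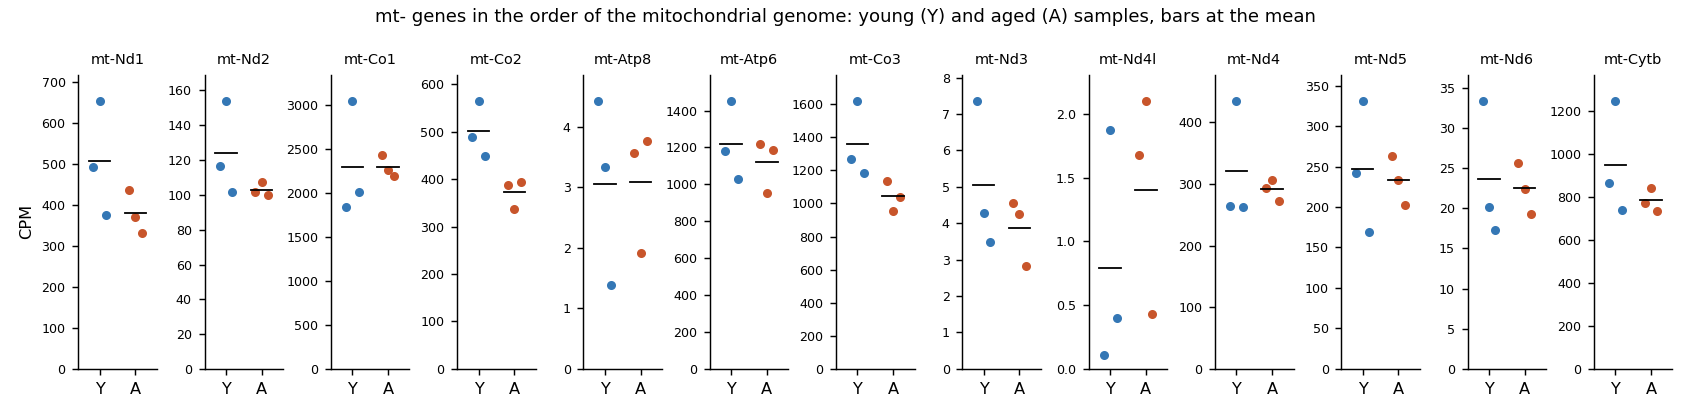
CPM of the 13 mt- genes in each young (Y) and aged (A) sample, in their order on the mitochondrial genome, with a bar at each mean and a separate axis for each gene. Only mt-Co2 and mt-Co3 have all aged points below all young points, and the highest young point of most genes is sample B.

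Nuclear and mitochondrial transcripts were set side by side in each sample. The nuclear members summed to 6756, 6282 and 7329.8 CPM in the young and 6123, 5412 and 5564 CPM in the aged samples, with no overlap and a ratio of means of 0.840. The sum of mt- over nuclear members was 1.01, 1.52 and 0.867 in the young samples and 1.16, 1.18 and 1.17 in the aged samples, so the aged values lay inside the young range, and the young samples differed far more among themselves than the aged did. Young sample B had the lowest nuclear sum and the highest mt- sum of its group. The difference between nuclear and mt- fold changes was not tested. The mitochondrial ribosomal RNAs, which are no members, summed to 1802, 3707 and 2349 CPM in the young and 3084, 3993 and 3331 CPM in the aged samples, with mt-Rnr2 at 0.42 (adjusted p = 0.272). Per kb of transcript, mt-Atp6 (1793 CPM per kb in the young) and mt-Co3 (1729.8) stood above the highest nuclear members with a matched length, Atp5b (517) and Cox4i1 (462).

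The assembly factors of the complexes fell in larger proportion than the subunits in several lists, although lists and subunits were not tested against each other. In the complex I list, 6 of 16 tested genes (37.5%, against 7.97% of all genes) fell and 0 rose, with a median of -0.73 (-0.47 with offsets, which left 5 calls where 5.21% of all genes were lower). Nubpl, which delivers iron-sulphur clusters to complex I, stood at 6.08, 7.09 and 6.07 CPM in the young and 1.75, 3.50 and 2.34 CPM in the aged samples (-1.34 ± 0.31, adjusted p = 0.0201). Ecsit, which serves both complex I assembly and Toll-like receptor signalling, stood at 9.56, 13.1 and 11.4 CPM in the young and 5.95, 5.03 and 4.07 CPM in the aged samples (-1.18 ± 0.24, adjusted p = 0.0141). The assembly factors Ndufaf4 and Ndufaf6 fell by 1.25 and 1.26 on the log2 scale. These genes were not abundant, and in none of the 4, which were named because they were called, did the ages overlap. In the whole list the aged samples were all below the young in 8 of 16 genes (50.0%, against 19.0% of all genes).

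The lists for the other complexes held fewer called genes each. Against the same shares of all genes, for complex II 1 of 4 tested genes (25.0%) fell (Sdhaf4, -0.81), and for complex III 2 of 6 (33.3%; Uqcc3, -0.82, and Uqcc2, -0.78). For complex IV, 4 of 23 (17.4%) fell, namely the assembly factors Coa6 (-1.29), Coa4 (-1.18), Cmc1 (-0.81) and Cox16 (-0.80). With offsets 0, 0 and 1 calls were left in these 3 lists. For complex V, 4 of 6 (66.7%) fell and 2 were left with offsets. Of these, Atpif1, the inhibitor that blocks ATP hydrolysis by the synthase, stood at 66.9, 48.0 and 63.0 CPM in the young and 30.9, 32.0 and 34.5 CPM in the aged samples (-0.87 ± 0.17, adjusted p = 0.0127). Atpaf1 (-1.45), Tmem242 (-0.84) and Atpaf2 (-0.70) were the others. edgeR called 0 genes of the 5 assembly lists higher, and limma-voom called 1, in the complex III list.

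Among the carriers between the complexes and the enzymes of coenzyme Q synthesis, 3 of 20 tested genes (15%, against 7.97% of all genes) fell and 1 (5.0%, below the 9.73% of all genes) rose, with a median of -0.24. With offsets 2 lower calls were left. Coq7, a hydroxylase of coenzyme Q synthesis, stood at 19.5, 15.4 and 19.9 CPM in the young and 9.52, 7.89 and 8.15 CPM in the aged samples (-1.10 ± 0.20, adjusted p = 0.00974). Dhodh, the pyrimidine-synthesis enzyme that reduces coenzyme Q, was at -1.32 (adjusted p = 0.0122) and Coq9 at -0.73 (adjusted p = 0.0424). Gpd2, the glycerol-3-phosphate dehydrogenase of the inner membrane, was the one that rose, from 66.8, 29.2 and 46.2 CPM in the young to 86.6, 88.8 and 94.8 CPM in the aged samples (0.93 ± 0.26, adjusted p = 0.0344). Cycs, cytochrome c, had -0.20 (adjusted p = 0.526).

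In the list of pyruvate dehydrogenase and the tricarboxylic acid cycle, 3 of 18 genes (16.7%, against 7.97% of all genes) fell and 0 rose by edgeR (median -0.28), and limma-voom called 6 lower and 1 higher. With offsets, with the replicate block or with no filter on low counts, 2 lower calls were left. Idh2, the NADP-dependent isocitrate dehydrogenase of the mitochondrion, stood at 110.0, 135 and 117 CPM in the young and 49.3, 72.2 and 48.3 CPM in the aged samples (-1.09 ± 0.19, adjusted p = 0.00853). Fh1, fumarate hydratase, stood at 46.9, 80.1 and 53.6 CPM in the young and 30.7, 30.7 and 30.1 CPM in the aged samples (-0.98 ± 0.21, adjusted p = 0.0152), and Idh3b at -0.57 (adjusted p = 0.0385). Of 25 tested genes of protein import, 6 (24.0%, against 7.97% of all genes) fell and 0 rose, led by Dnajc19 (-0.85), Timm8a1 (-0.85), Tomm5 (-0.84) and Timm10b (-0.79), and 2 calls were left with offsets, where 5.21% of all genes were lower. Of 13 carriers and porins, 2 (15.4%, against 7.97%) fell and 0 rose: the dicarboxylate carrier Slc25a10 (-1.09) and the ADP/ATP carrier Slc25a4 (-0.59). Of these, 1 was left with offsets, with the replicate block or with no filter on low counts.

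The genes that copy and transcribe mitochondrial DNA and those that regulate mitochondrial content gave unlike medians. In the first list the median was -0.32, with 15 of 20 tested values below 0. In that list 1 gene (5.0%, against 7.97% of all genes) fell, Pnpt1, an RNA exonuclease (-0.86), and 1 (5.0%, against 9.73%) rose, Polg, the catalytic subunit of the mitochondrial DNA polymerase (0.76, no longer called with offsets). Both shares were below those of all genes. In the list of regulators 1 of 12 tested genes (8.33%, near the 7.97% of all genes) fell and 3 (25.0%, against 9.73%) rose, with a median of 0.46, or 0.32 with offsets. The count called higher was 2 with upper-quartile factors, no filter or the replicate block, and 6 with limma-voom. Sirt3, the main deacetylase of the mitochondrion, fell from 5.03, 8.09 and 8.51 CPM in the young to 2.45, 3.44 and 2.72 CPM in the aged samples (-1.32 ± 0.30, adjusted p = 0.0185). Sirt1 (0.71 ± 0.18, adjusted p = 0.0266), Myc (0.78 ± 0.24, adjusted p = 0.0458) and Gabpb1 rose. The ages did not overlap in any of these 4 genes, which were named because they were called. In the whole list 2 of 12 genes were separated lower (16.7%, against 19.0% of all genes) and 6 higher (50.0%, against 19.2%). Ppargc1a, which encodes the coactivator PGC-1α, stayed at or under 0.198 CPM in the 6 samples and was not tested.

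Of the 13 members that are pseudogenes by symbol or biotype, 7 passed the filter on low counts, 1 (14.3%, against 7.97% of all genes) fell, Ndufa12-ps, and 0 rose, and their median was -0.47. Ndufb1-ps, which the annotation lists as protein-coding, stood at 16.6, 11.1 and 14.0 CPM in the young and 13.9, 14.5 and 15.4 CPM in the aged samples (0.07, adjusted p = 0.829). The remaining 6 were under 1 CPM in every sample. Where a pseudogene resembles its parent gene, the counts of the pair are uncertain in both directions. For Ndufb1-ps no parent gene named Ndufb1 was among the members.

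The count of calls changed when single samples were left out. Without young sample C, 0 nuclear members were called, among 0.548% of all genes called lower, and without aged sample C 1 was called, among 1.58%. Leaving out aged sample B, in which the keratinocyte markers were found, left 2 calls, among 4.98% of all genes called lower. In each of these fits, without young sample C, aged sample C or aged sample B, the members' share was below that of all genes. Without aged sample A 4 were left (4.26% of all genes), without young sample B 6 (2.71%) and without young sample A 15 (9.29%). The nuclear median stayed between -0.44 and -0.31 in these 6 fits. It was lowest without young sample B, whose nuclear levels were the nearest to the aged samples.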

How the data were processed

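RNA of F4/80+ CD64+ macrophages from Day 3 wounds was sequenced in 3 young and 3 aged samples from SMART-Seq v4 libraries. Per the submitters' processing notes, reads were aligned to mm10 with STAR 2.7.3a in Partek Flow. The authors deposited expected counts per gene, not normalised, for genes with a total of at least 10. A deposited table of the authors' own comparison (counts divided by size factors, p-values, fold changes) was not used here. The design named counts, and the expected counts were rounded to whole numbers. The stop coordinate of the files is the base after the last one, and printed ends were reduced by 1 base.

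Aged and young samples were compared in R 4.3.3 with the quasi-likelihood test of edgeR 4.0.16 (TMM scaling, filterByExpr) and Benjamini-Hochberg adjustment over 11878 genes, with calls made where the adjusted p-value was below 0.05. Log2 CPM used a prior count of 2. DESeq2 1.42.0, limma-voom (limma 3.58.1), other scalings, filters and thresholds, a replicate block, spline offsets (5 degrees of freedom) on transcript length and GC content, and leaving out each sample were alternatives. Length and GC were those of 1 GENCODE vM21 transcript per gene, matched for 98.3% of tested genes. The fits were tested on simulated data, and no outcome of that test is given here. Plots used Python 3.11.15, pandas 2.3.3 and matplotlib 3.10.9.

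Members and lists were chosen with earlier results of these data known. Named were the mt- genes, called members (up to 6 a complex), the extremes, core subunits and isoforms of each complex, and up to 4 called genes a list. A gene that the rule names is not reported here. Other genes named (Ndufa8, Ndufb8 and Ndufb10 among them, the sort markers, the promoter factors, Cycs, Ppargc1a, Uqcrc1, Uqcrc2, Ndufa4, Atp5c1, Atp5d, Atp5e and Ndufb1-ps) were chosen after their values were seen.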

Additional observations from a re-analysis of the deposited data

How the results depend on the processing

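The length and GC offsets moved the median of the nuclear members furthest and left 1 nuclear call of 14 (1 in complex I, 0 in complexes III, IV and V, and 18 lower calls over the pathway lists). They moved the median log2 fold change to -0.18 for nuclear members, -0.12 for nuclear and mt- members together, -0.23 for complex I, -0.078 for complex III, -0.051 for complex V and -0.25 for the lists, and turned it to 0.0009755 for complex IV and to 0.11 for the mt- members. Upper-quartile factors, which shifted the median of all genes to -0.09, gave 26 nuclear calls, where 10.1% of all genes were lower (16 in complex I, 4 in III, 3 in V) and medians of -0.43 for nuclear members and -0.38 for the lists. limma-voom gave 32, where 14.4% of all genes were lower and 16.3% higher (22 in complex I, 4 in IV, 3 in V), with 52 lower and 11 higher list calls, a list median of -0.37 and an mt- median of -0.033. Unadjusted p-values gave 37 nuclear and 1 mt- calls, 38 in all, where 16.5% of all genes were lower and 18.1% higher (24 in complex I, 4 in III, 5 in IV, 4 in V), with 56 lower and 11 higher list calls. A further 2-fold change gave 1 (in complex IV, with 0 in I, III and V), with 13 lower and 0 higher list calls. DESeq2 and a minimum of 10 counts in every sample gave 2 calls in complex V, and no filter gave 1 in complex III. DESeq2 size factors, scaling without mt- genes and, added after the data were seen, pseudogene counts joined to their parents left each of these counts within 1.5 times and the medians within the spread between samples. No called gene changed sign. The set letters shared by the age groups correlated at 0.18, -0.02 and 0.11 (A, B, C), so they were not taken to pair the samples. A replicate block on these letters gave 1 call in complex III. With it Uqcr11, Ndufa8 and Ndufb10 were no longer called (adjusted p = 0.0596, 0.0586 and 0.0513). Ndufa5, Ndufa7 and Ndufs4 were called only with the block among these fits of edgeR with TMM scaling and the main filter (adjusted p = 0.0420, 0.0421 and 0.0469). No fit of the offsets with the block was run. Leaving out each sample gave 0 to 15 nuclear calls, 0 to 9 in complex I, 0 to 2 in each of complexes III, IV and V, 0 to 33 lower and 0 to 9 higher list calls, and medians of -0.44 to -0.31 for nuclear members, -0.34 to -0.24 for complex IV and -0.33 to -0.030 for the mt- members. Apart from the omissions, where fewer samples were tested, the cause was not tested, and length was not set apart from GC content. Members under about 5 CPM, such as mt-Nd4l, Cox6b2 and Atp5g2, are limited by depth.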
